A study of Mus musculus with 8 samples.

Results

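Mature oligodendrocytes on day 6 of culture were compared with immature oligodendrocytes on day 0, by their microRNAs (miRNAs). The members of this comparison were the samples whose titles name mature cells of d6 and immature cells of d0, which gave 6 of the 8 samples of the series, 3 per day. The 2 samples of day 1 did not enter the fit and are quoted only where they help to place a value. The series set out to find miRNAs of the oligodendrocyte lineage with a miRNA array, and its title names the miR-17 to miR-92a clusters.

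The day 6 group held mature oligodendrocytes (n = 3) and the day 0 group immature ones (n = 3). Both came from untreated primary cultures of C57BL/6J mice, and the cells of both days carried CNP-Cre, which is Cre recombinase under the promoter of the oligodendrocyte gene Cnp. No culture without this transgene was analysed here. Cells were shaken off and grown in DMEM with B27, horse serum, L-thyroxine and tri-iodo-thyronine, and total RNA was extracted with Trizol and labelled with Cy3. The series text describes the samples as independent but starts its day count for immature cells elsewhere than the sample titles do, and the days of the titles are used here. The sources used here do not say whether the samples came from separate animals or litters. The p-values therefore reflect the spread among these cultures alone, which may be technical.

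A miRNA is a short RNA cut from a hairpin transcript, and it lowers the output of messenger RNAs that pair with its seed, bases 2 to 8. MiRNAs with the same seed form families that share many targets. Oligodendrocyte precursors divide, leave the cell cycle and then make myelin, and miR-219 and miR-338 are known to help this step by acting on messenger RNAs of precursor genes. MiRNAs of the miR-17 to miR-92a clusters are known for promoting cell division.

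The mature sequences of the miRNAs on which the comparison turns are given 5′ to 3′, with the seed in capitals, from RefSeq on mouse build GRCm38.p6. Of the 181 miRNAs tested, 147 (81.2%) matched an entry. The first set holds those that were called higher on day 6 or came next by p-value. MiR-714, which had the smallest p, is named only.
miR-711: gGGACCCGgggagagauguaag
miR-139-3p: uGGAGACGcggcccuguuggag
miR-706: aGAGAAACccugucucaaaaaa
miR-483: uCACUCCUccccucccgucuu
miR-710: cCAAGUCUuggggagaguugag
miR-494: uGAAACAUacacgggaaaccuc
miR-99b: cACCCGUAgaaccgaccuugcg
miR-1224: gUGAGGACuggggagguggag
The second set shows the only family with a member near the threshold on the lower side, miR-322, beside a relative that shares its seed AGCAGCA and differs after it.
miR-322: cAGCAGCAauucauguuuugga
miR-15b: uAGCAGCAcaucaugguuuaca
The third set gives the miRNAs of oligodendrocyte differentiation, which have 4 different seeds.
miR-219: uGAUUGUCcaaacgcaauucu
miR-338-3p: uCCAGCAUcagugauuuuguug
miR-138: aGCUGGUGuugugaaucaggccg
miR-32: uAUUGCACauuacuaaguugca
The fourth set gives members of the miR-17 to miR-92a family, in which miR-17, miR-20a and miR-106b share the seed AAAGUGC, while miR-18a, miR-19b and miR-92a have others.
miR-17: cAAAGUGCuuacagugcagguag
miR-20a: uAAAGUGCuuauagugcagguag
miR-106b: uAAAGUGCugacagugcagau
miR-18a: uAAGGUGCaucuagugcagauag
miR-19b: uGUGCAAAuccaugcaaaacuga
miR-92a: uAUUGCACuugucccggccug
The last set gives miR-7a and miR-7b, which share the seed GGAAGAC, and the neighbour of miR-99b on chromosome 17, let-7e.
miR-7a: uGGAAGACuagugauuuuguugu
miR-7b: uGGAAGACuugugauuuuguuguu
let-7e: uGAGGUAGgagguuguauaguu

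MiR-711 lies at chr9:108969970-108969991 on the plus strand, within the annotated span of Col7a1. MiR-139-3p lies at chr7:101475418-101475439 on the plus strand, within Pde2a. MiR-483 lies at chr7:142654932-142654952 on the minus strand, within Igf2, and miR-706 at chr6:120034290-120034311 on the minus strand, within Wnk1. Exons and introns were not told apart. All these positions are on GRCm38.p6.

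Signals are given as log2 of the background-subtracted array intensity after scaling each array to the others. Values under 4.22 were raised to that floor, where they have no order. A miRNA counts as detected on an array where at least a share of 0.5 of the spots of a probe was well above background. Day 6 replicates 1, 2 and 3 detected 173, 179 and 170 of the 611 mouse miRNAs on the array, and day 0 replicates 1, 2 and 3 detected 61, 187 and 218. Day 0 replicate 1 stood apart. By the median absolute deviation, the spread of its negative control spots was 30.2 intensity units, against 2.54 to 3.88 on the other arrays. By SD it was not the widest, at 50.3, against 46.7 and 57 on day 6 replicates 1 and 3. Day 6 replicate 2 and day 0 replicates 2 and 3 had SDs of 8.08, 6.65 and 2.74. The lowest detected signal of day 0 replicate 1 was 7.66 on the log2 scale, against 4.22 to 4.57 on the remaining 5. Of the 181 tested miRNAs, 123 had a value under that limit there. Across the tested miRNAs its correlation with the other arrays was 0.834 to 0.887. Without it, correlations were 0.939 to 0.965 within a day and 0.874 to 0.934 between days, as a description over miRNAs measured on shared arrays. All arrays lay on 1 slide with 1 scan date, and both rows of the slide held both days. RNA was taken from whole cultures, so fewer cells of a type and less RNA per cell cannot be told apart.

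In the main fit 3 miRNAs were called higher on day 6 than on day 0: miR-714, miR-711 and miR-139-3p. These were 1.66% of the 181 miRNAs tested by limma with Benjamini-Hochberg adjustment at 0.05, and 0 (0%) were called lower. At an unadjusted p under 0.05, 22 miRNAs passed, which is 12.2% of those tested, with 16 higher and 6 lower. Without day 0 replicate 1, limma called 4 higher and 1 lower, and the 3 were among the 4. With no detection filter limma called 1 higher, miR-714. MiR-711 met that filter through the day 6 arrays alone, so its call is a description and not support. MiR-139-3p was called in 7 of the 22 processing alternatives in which it was tested. An exact permutation test of 3 arrays against 3 cannot give a p below 0.1, so the calls rest on limma's spread pooled over miRNAs.

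MiR-714 had signals of 8.77, 8.44 and 8.75 on day 6, against 4.22, 4.22 and 4.43 on day 0. The days lay far apart, and the day 0 values were at or just above the floor. The day 1 arrays read 8.17 and 9.62. The difference was 4.36 ± 0.26 on the log2 scale (SE, adjusted p = 5.02e-05, limma). Of its other probes, the second was 3.79 higher and the third 1.77 higher on day 6, and the last was not detected on any of the 6 arrays. Within the slide rows the difference was 4.42 in row 1 and 4.38 in row 2. MiR-714 was called in all 22 alternatives in which it was tested, with differences from 2.48 to 4.72.

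MiR-711 read 7.55, 6.60 and 6.59 on day 6, and 4.22 on each day 0 array. It was detected on every day 6 array and on none of day 0. MiR-711 met the filter on detection through the day 6 arrays alone, so a difference was built into its selection for the test. The fitted difference of 2.69 ± 0.33 (SE, log2, adjusted p = 0.00517, limma) is against floor values that had no spread, and its p is a description and not support. With no detection filter the adjusted p was 0.107 (limma). By the lowest detected signal of each day 0 array, miR-711 was at least 2.92-fold higher on day 6. All its day 6 signals lay below the detection limit of day 0 replicate 1. Of its other probes, 1 was detected on a single day 6 array and the rest on none. It was called in 16 of the 19 alternatives in which it was tested, with differences from 0.72 to 3.69. It missed with the mean of all probes (0.72, adjusted p = 0.212, limma), with the floor doubled (1.69, adjusted p = 0.0665, limma) and with no filter. With any day 6 array left out it was detected on too few arrays for a test.

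MiR-139-3p read 6.75, 6.11 and 6.23 on day 6, against 4.22, 4.50 and 4.80 on day 0. The lowest day 6 value was above the highest day 0 value. All its day 6 signals lay below the lowest detected signal of day 0 replicate 1, 7.66, where it was not detected. The difference was 1.86 ± 0.31 (SE, log2, adjusted p = 0.0227, limma). Its second probe was not detected on the 6 arrays, nor was miR-139-5p, the strand from the other arm of the same hairpin. Its call was the least stable of the 3 over the processing alternatives. It passed in 7 of the 22 alternatives in which it was tested, with adjusted p-values from 0.00715 to 0.235, and missed when slide row entered as a block (0.106), with any single day 6 array left out (0.115 to 0.235), and without day 0 replicate 2 (0.108) or replicate 3 (0.0645).

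**Figure D1:**
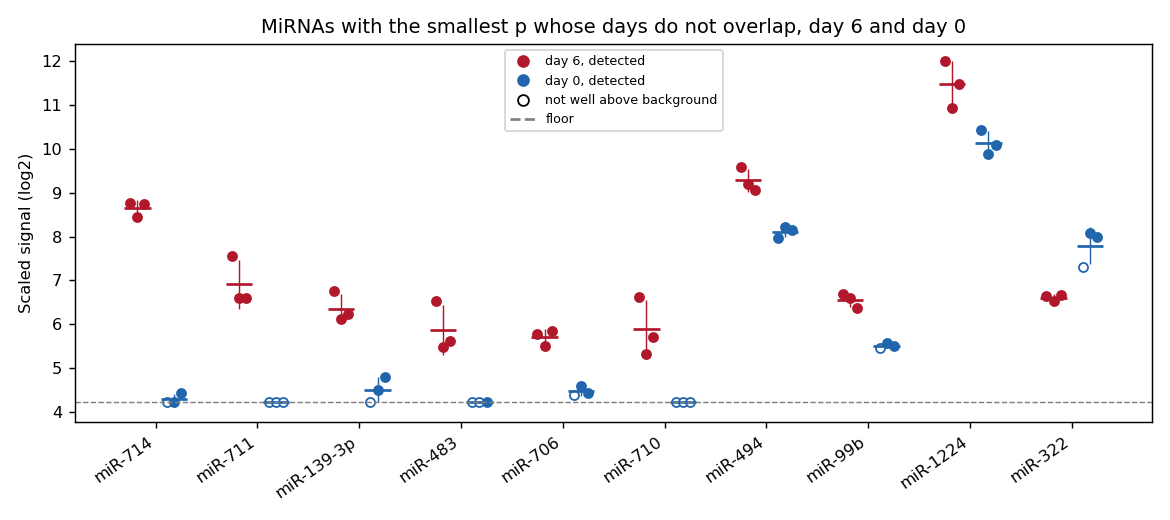
Scaled signal (log2) of 10 miRNAs on each day 6 array (red) and each day 0 array (blue), with the mean as a bar and the SD as a line; open points were not well above background, and the dashed line is the floor of 4.22. The miRNAs were those with the smallest p among those whose days did not overlap, and miR-322 alone of them was lower on day 6.

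Of the 181 tested miRNAs, 20 had all day 6 values above all day 0 values, which is 11.0%, and 11 had all of them below, which is 6.08%. Several missed the threshold narrowly, and some are named here outside the rule for named miRNAs, with their values already known: miR-483, miR-706, miR-671-5p, miR-1892, miR-1895, miR-202-3p, miR-712, miR-689, miR-127 and miR-434-3p. MiR-706 read 5.77, 5.51 and 5.85 on day 6, against 4.38, 4.60 and 4.44 on day 0. The replicates of each day lay close together, and the difference was 1.23 ± 0.26 (SE, log2, adjusted p = 0.0575, limma). MiR-706 was not detected on day 0 replicate 1, whose lowest detected signal of 7.66 lay above all its day 6 signals. Only 1 of its probes was detected. MiR-483, which is encoded within the growth factor gene Igf2, read 6.52, 5.48 and 5.61 on day 6, with every day 0 value of its brightest probe at the floor. Its difference was 1.65 ± 0.34 (SE, log2, adjusted p = 0.0575, limma), and its other probes were 1.41, 1.30 and 0.57 higher on day 6. The day 6 detections of miR-483 alone were enough for the filter. Its fitted difference is against floor values with no spread, so its p is a description and not support. The brightest probe was not detected on day 0 replicate 1, whose lowest detected signal of 7.66 lay above all its day 6 signals.

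MiR-710 was the second miRNA detected on all day 6 arrays and on no day 0 array. It read 6.63, 5.33 and 5.70 on day 6 and 4.22 on each day 0 array, and was at least 1.43-fold higher on day 6. It too met the filter through day 6 alone, and its fitted difference of 1.67 ± 0.37 (SE, log2), against floor values with no spread, is a description. A second probe was 1.51 higher. In the other direction, miR-328 was detected on no day 6 array, and on all 3 day 0 arrays by 1 of its probes. Its brightest probe was detected on day 0 replicate 1 alone, at 7.95, so it was not tested. The second probe read 7.91 there, and was well above background on replicates 2 and 3 with values at the floor. The computed value of 2.07-fold lower on day 6 takes its size from day 0 replicate 1. On day 0 replicates 2 and 3 miR-328 read 4.22, below the lowest detected signals of the day 6 arrays, 4.26 to 4.57. For those day 0 arrays the value is therefore not a bound.

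Among the 53 miRNAs detected on all 6 arrays, 5 had day 6 values wholly above day 0 and 6 wholly below. Over all 181 tested miRNAs the shares were 11.0% above and 6.08% below. MiR-494, of the imprinted Dlk1-Dio3 region, read 9.58, 9.19 and 9.07 on day 6, against 7.96, 8.21 and 8.16 on day 0. The gap between the days was wider than the range within either. Its difference was 1.17 ± 0.27 (SE, log2, adjusted p = 0.0739, limma), and its second probe was 0.96 higher on day 6. The day 1 arrays stood at 9.99 and 10.44, above both days. When the test was limited to the 53 miRNAs, miR-494 was the 1 call.

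MiR-1224, known as a mirtron, a hairpin released by splicing, lies within the span of Vwa5b2. It read 12.00, 10.94 and 11.48 on day 6, against 10.42, 9.88 and 10.09 on day 0. The days did not overlap, and the day 6 arrays were spread more widely than the day 0 arrays. Its difference was 1.34 ± 0.35 (SE, log2, adjusted p = 0.0962, limma), and a second probe gave 1.27. MiR-27a, let-7c and let-7b were the other 3, with differences of 0.46, 0.30 and 0.29 and adjusted p-values of 0.652, 0.679 and 0.679.

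MiR-322 had the smallest p of the miRNAs that were lower on day 6. It is the mouse counterpart of human miR-424 and a known brake on cyclins. It read 6.64, 6.52 and 6.66 on day 6, against 7.31, 8.08 and 7.98 on day 0. The day 6 arrays lay within a narrow band below every day 0 array. The difference was -1.19 ± 0.30 (SE, log2, adjusted p = 0.0934, limma), and a second probe gave -1.23. On day 0 replicate 1 it was not detected. Without that array the difference was -1.33 ± 0.19 (SE, adjusted p = 0.0266, limma), the 1 call lower on day 6.

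The 6 miRNAs detected on all arrays and lower on day 6 without overlap were miR-181d, miR-92a, miR-690, miR-15b, miR-30b and miR-26b. Their differences ran from -1.16 for miR-181d to -0.23 for miR-26b, and their adjusted p-values from 0.445 to 0.743. MiR-181d read 5.87, 5.28 and 6.20 on day 6, against 8.10, 6.46 and 6.28 on day 0, with the highest value on day 0 replicate 1. Without that array its difference was -0.49, and miR-92a, at -0.59, lay further below 0. MiR-15b read 8.74, 8.66 and 8.68 on day 6, against 8.95, 8.94 and 9.12 on day 0, a small difference of -0.31.

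**Figure D2:**
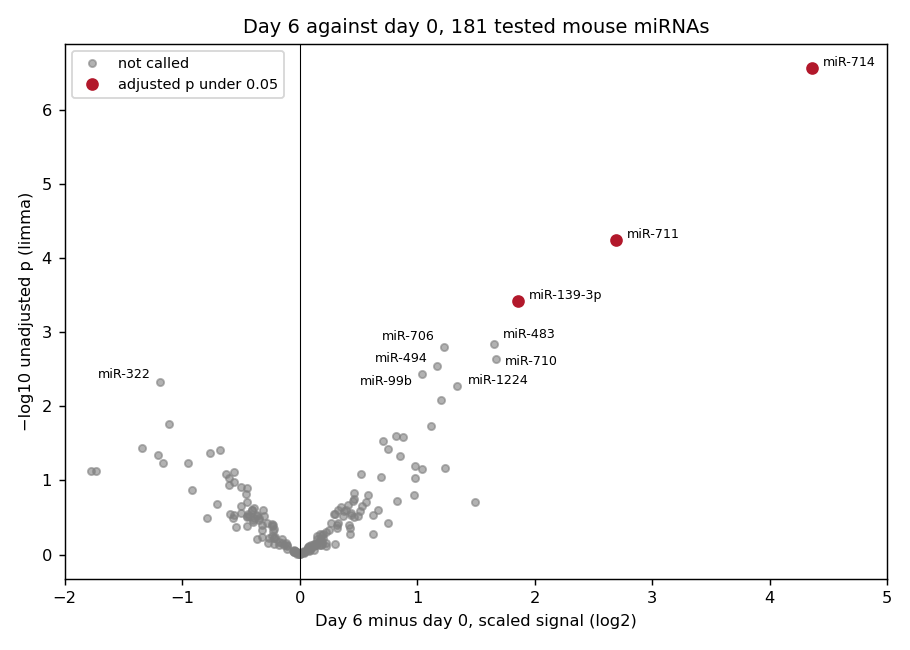
Each point is 1 of the 181 tested miRNAs, with the difference of day 6 minus day 0 in scaled signal (log2) across and −log10 of the unadjusted limma p upward; red points had an adjusted p under 0.05. MiR-714, miR-711 and miR-139-3p stand to the upper right, and miR-322 is the highest point left of 0.

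Of the miRNAs known to promote oligodendrocyte differentiation, 4 of 5 on the array were tested and 0 were called. Their median difference was 0.68, against 0.04 over all tested miRNAs, with 3 of 4 above 0. MiR-338-3p, which acts on precursor genes, read 11.23, 9.55 and 10.93 on day 6, against 7.05, 11.54 and 8.65 on day 0. Day 0 replicate 2 was above every day 6 array and the other day 0 arrays were below, so the days overlapped. The difference was 1.49 ± 1.06 (SE, log2, adjusted p = 0.679, limma), the largest difference among the 4.

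MiR-219, with a similar known role, read 6.37, 5.80 and 7.17 on day 6, against 4.22, 8.15 and 5.10 on day 0. Its difference was 0.62 ± 0.94 (SE, adjusted p = 0.862, limma). MiR-138, known for extending the early phase of differentiation, read 6.85, 5.96 and 7.06 on day 6, against 4.22, 7.65 and 5.75 on day 0. These 3 miRNAs had their highest value on day 0 replicate 2 and their lowest on day 0 replicate 1, where none was detected. The difference of miR-138 was 0.75 ± 0.80 (SE, adjusted p = 0.742, limma). MiR-32, reported to raise myelin protein expression, read 4.66, 4.78 and 5.33 on day 6, against 4.22, 5.66 and 4.93 on day 0, a difference of -0.01 ± 0.41 (SE). MiR-338-5p, from the other arm of the miR-338 hairpin, was detected on 1 array of each day and was not tested.

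These differences had opposite signs in the 2 slide rows, of which row 2 held only 1 day 0 array. In row 1, which held day 6 replicate 3 and day 0 replicates 1 and 3, miR-338-3p was 3.08, miR-219 2.51 and miR-138 2.07 higher on day 6. In row 2, which held day 6 replicates 1 and 2 and day 0 replicate 2, the differences were -1.15, -2.07 and -1.25. Without day 0 replicate 1 the median of the 4 was -0.04, and miR-338-3p differed by 0.57 ± 0.88 (SE, adjusted p = 0.763, limma), miR-219 by -0.09 and miR-138 by 0.01. The day 1 arrays were also far apart, at 11.17 in row 1 and 7.67 in row 2 for miR-338-3p. The part of the slide row or of differing cell states in this spread was not tested.

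**Figure D3:**
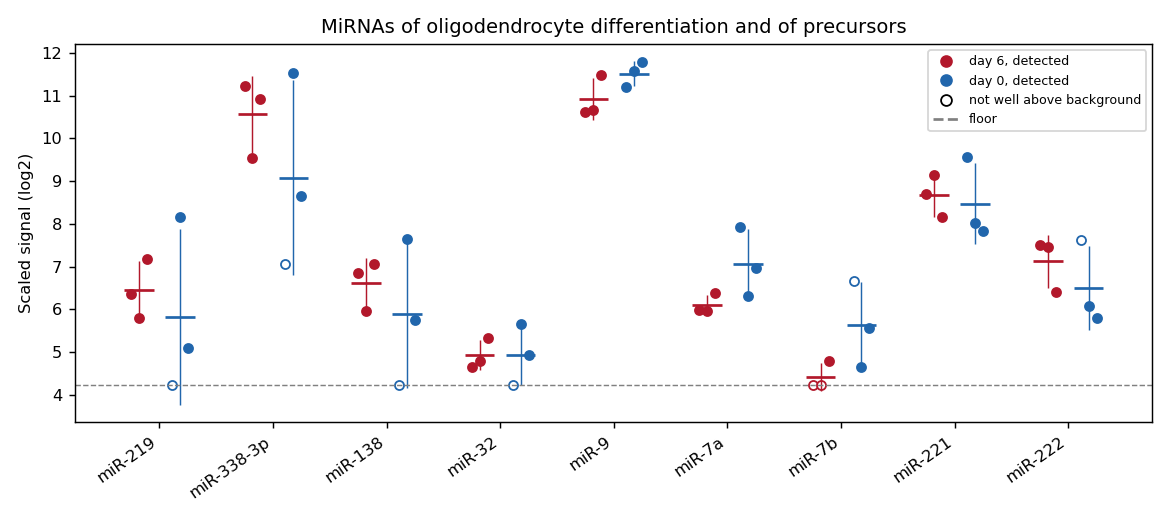
Scaled signal (log2) of miRNAs of oligodendrocyte differentiation (miR-219 to miR-32) and of precursors or brakes on myelin genes (miR-9 to miR-222) on each day 6 array (red) and each day 0 array (blue), with means, SDs, open points for values not well above background, and the floor of 4.22 dashed. For miR-219, miR-338-3p and miR-138 the day 0 arrays span a wider range than the day 6 arrays, with replicate 2 at the top.

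Of 10 miRNAs described in precursors or as brakes on myelin genes, 9 were tested and 0 called, with 5 above and 4 below 0 and a median of 0.19, which was 0.41 without day 0 replicate 1 and -0.28 with no scaling. MiR-7a, a regulator of precursor generation, read 5.99, 5.97 and 6.38 on day 6, against 7.92, 6.31 and 6.97 on day 0. The overlap was slight, and the difference was -0.95 ± 0.43 (SE, adjusted p = 0.445, limma). MiR-7b, with the same seed, read 4.22, 4.22 and 4.80 on day 6, against 6.67, 4.65 and 5.56 on day 0, and differed by -1.21 ± 0.51 (SE, adjusted p = 0.382, limma). Both had their highest value on day 0 replicate 1, and without it their differences were -0.43 and -0.64. MiR-145, also a mark of mural cells, was not detected on any of the 6 arrays.

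The scaling between arrays moved the differences of all miRNAs together, and small family differences are read against the median of all tested. That median was 0.04 here, -0.43 with no scaling, 0.33 with scaling to control probes, 0.19 with scaling over all probes and 0.09 with quantile normalization.

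The miR-17 to miR-92a family showed small differences that all lay on the lower side. Its 10 tested members, of 12 on the array, were all below 0, from -0.63 for miR-20b to -0.11 for miR-17, with a median of -0.42 and 0 called by limma. With scaling to control probes 8 of the 10 were below 0, with a median of -0.13 against 0.33 over all tested miRNAs, and with quantile normalization 7 were, with a median of -0.26 against 0.09. Within slide row 1, miR-17, miR-18a, miR-19a and miR-106b were 0.39, 0.31, 0.27 and 0.1 higher on day 6. The other tested members were lower there, from -0.07 for miR-25 to -0.3 for miR-92a. Within row 2, which held only 1 day 0 array, all were lower, from -0.65 for miR-25 to -1.15 for miR-18a. MiR-18b and miR-363 were not detected.

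MiR-92a has loci on chromosomes 14 and X with the same mature sequence, which the array cannot tell apart. MiR-92a read 8.50, 8.24 and 8.64 on day 6, against 8.76, 9.19 and 9.12 on day 0. It was the only member whose days did not overlap, and it differed by -0.56 ± 0.27 (SE, adjusted p = 0.461, limma). Over all 181 tested miRNAs, 6.08% lay wholly below day 0. MiR-20a read 9.13, 8.86 and 9.36 on day 6, against 9.25, 9.94 and 9.96 on day 0, with day 0 replicate 1 inside the day 6 range. Its difference was -0.60 ± 0.31 (SE, adjusted p = 0.476, limma). MiR-17 itself read 6.13, 5.61 and 6.15 on day 6, against 4.79, 6.70 and 6.71 on day 0.

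In every member but miR-92a, day 0 replicate 1 lay below at least 1 day 6 array while the other day 0 arrays lay above all of them. Without it, all 10 were again below 0 with a median of -0.62, against 0.06 over all tested miRNAs, and 0 were called. MiR-17 then differed by -0.65 ± 0.23 (SE, adjusted p = 0.164, limma) and miR-20a by -0.74 ± 0.21 (SE, adjusted p = 0.142, limma). By seed, the 5 miRNAs with AAAGUGC had a median of -0.46, and miR-25, miR-32 and miR-92a, with AUUGCAC, had a median of -0.36. The miRNAs of a cluster come from 1 transcript and related probes, so they do not count as separate observations.

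The miR-15 and miR-16 family, known as brakes on cyclins, had 6 of 6 members tested, with a median of -0.12 and 1 above 0. With scaling to control probes its median was 0.16, against 0.33 over all, and without day 0 replicate 1 it was -0.22 with all 6 below 0. MiR-322 stood apart from its relatives, whose differences ran from -0.31 for miR-15b to 0.18 for miR-15a. MiR-15b and its neighbour miR-16, which lie 143 bases apart, differed by -0.31 and -0.22.

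The let-7 family, known to rise as progenitors mature, had 9 of 9 members tested and 0 called. Of these, 7 lay above 0, the range was -0.02 to 0.52, and the median was 0.15. With no scaling the median was -0.33, against -0.43 over all tested miRNAs, and without day 0 replicate 1 it was 0.13 with all 9 above 0. Let-7e had the largest difference of the 9, with 7.98, 7.98 and 7.71 on day 6, against 7.54, 7.34 and 7.23 on day 0. The days did not overlap, and the difference was 0.52 ± 0.26 (SE, adjusted p = 0.465, limma). Let-7b and let-7c, also without overlap, were 0.29 and 0.30 higher on day 6. Over all 181 tested miRNAs, 11.0% lay wholly above day 0.

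Let-7e, at chr17:17830366-17830387, shares a cluster on the plus strand with miR-99b, at chr17:17830194-17830215, and miR-125a. MiR-99b read 6.69, 6.61 and 6.37 on day 6, against 5.45, 5.58 and 5.51 on day 0. Both days were tight, and the difference was 1.04 ± 0.25 (SE, adjusted p = 0.0828, limma), with 1.19 from a second probe. It was not detected on day 0 replicate 1, whose lowest detected signal of 7.66 lay above all its day 6 signals. Its neighbours miR-125a-5p and miR-125a-3p differed by 0.20 and 0.58. MiR-99a and miR-100, which have the seed of miR-99b but come from other loci, differed by -0.15 and 0.04.

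**Figure D4:**
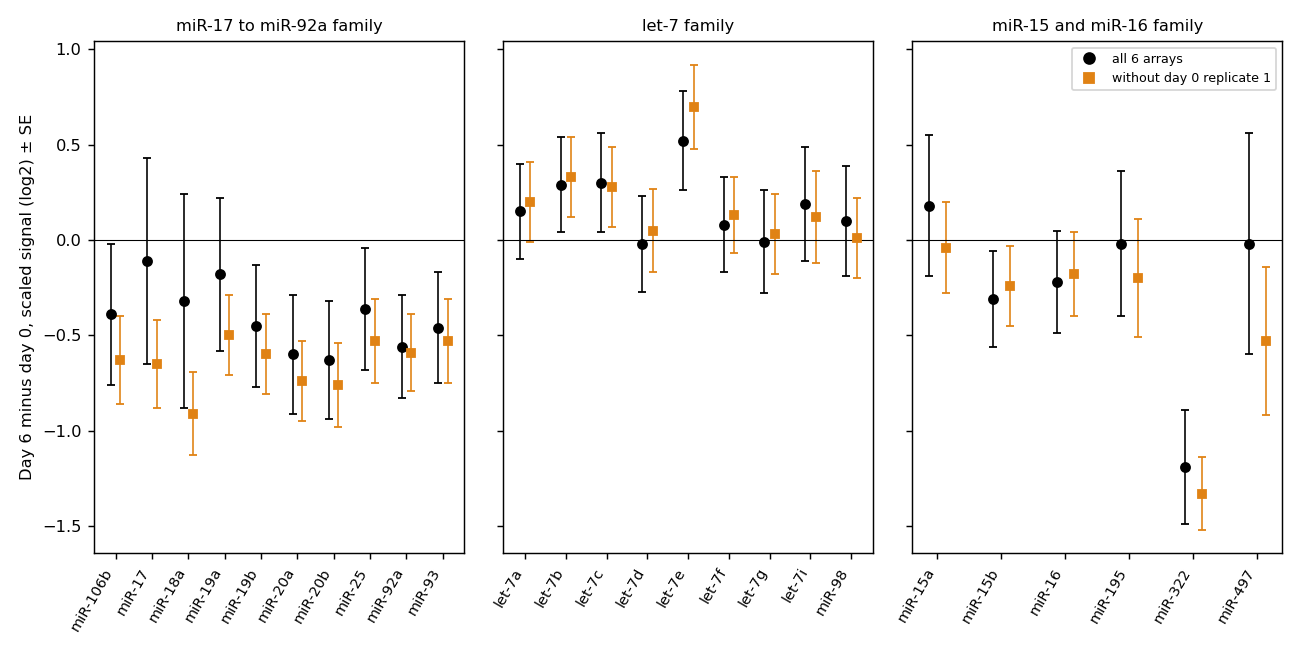
Difference of day 6 minus day 0 in scaled signal (log2, points) with its SE (bars) for the tested members of the miR-17 to miR-92a, let-7, and miR-15 and miR-16 families, with all 6 arrays (black) and without day 0 replicate 1 (orange). The first family lies below 0 in both, let-7e is the highest of its family in both, and miR-322 is the lowest in the third panel.

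None of the other families had a call. The miR-181 family had 4 of 4 members below 0, with a median of -0.29 that was -0.51 without day 0 replicate 1 and 0.00 with scaling to control probes. The miR-30 family had 5 of 5 below 0 (median -0.12), but all 5 lay above 0 with scaling to control probes, at a median of 0.17 against 0.33 over all. The miR-23, miR-27 and miR-24 clusters had 5 of 5 above 0, with a median of 0.17, which was 0.53 without day 0 replicate 1 and -0.30 with no scaling. The miR-29 family, which acts on collagens, had 3 of 3 above 0, with a median of 0.17, which was 0.39 without that array and -0.31 with no scaling.

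MiR-26 and miR-101, which act on Ezh2, were split 2 and 2 with a median of -0.07, and all 4 were below 0 without day 0 replicate 1, at a median of -0.46. Under scaling to control probes the median was 0.22. The miR-34 and miR-449 family, linked to p53 and to cilia, had a median of 0.02. Its member miR-449a read 4.71, 5.94 and 6.81 on day 6, against 7.15, 6.20 and 9.29 on day 0, a wide overlap on both days.

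The imprinted Dlk1-Dio3 clusters, on mouse chromosome 12, had 9 of 48 members tested, with 2 above 0, 7 below and a median of -0.45, which was -0.57 without day 0 replicate 1. MiR-494 was on the higher side, and 3 members lay wholly below day 0, as did 6.08% of all 181 tested miRNAs. MiR-410 read 4.22, 5.09 and 5.25 on day 6, against 6.23, 5.56 and 6.11 on day 0, and differed by -1.11 ± 0.37 (SE, adjusted p = 0.254, limma). MiR-434-3p and miR-127, which lie 1677 bases apart, differed by -1.34 and -0.76, with adjusted p-values of 0.368 and 0.382. Without day 0 replicate 1, where miR-434-3p read 7.22, their differences were -0.72 and -0.59.

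Of 44 mouse miRNAs numbered miR-680 to miR-721, 12 were tested, and they held 2 of the 3 calls, miR-714 and miR-711. Over all tested miRNAs 1.66% were called. MiR-711 and miR-710 met the filter on detection through the day 6 arrays alone. The call of miR-711 and the separate days of both are therefore descriptions and not support. Of the 12, 10 lay above 0, with a median of 0.69 against 0.04 over all tested miRNAs. The median was 0.68 without day 0 replicate 1, and 0.13 with no scaling, against -0.43 over all. On the higher side 6 had days that did not overlap, as had 11.0% of all 181 tested miRNAs. Besides miR-710 and miR-706, these 6 include miR-712 and miR-689, which differed by 0.71 and 0.75 with adjusted p-values of 0.333 and 0.368. MiR-690 was the member with separate days on the lower side, at 8.53, 8.56 and 8.46 on day 6, against 8.76, 9.22 and 8.92 on day 0. The list has in common its range of numbers, and functions are not described here. Star strands, the less abundant arm of a hairpin, had 14 of 115 tested, a median of 0.02 and no call. Of 39 miRNAs listed by name for the rodent cluster in Sfmbt2, 5 were tested, all below 0. Their median was -0.35, which was -0.05 without day 0 replicate 1. MiR-466i, which is among them, has its annotated position on chromosome 13 within Cdk13, outside that cluster.

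**Figure D5:**
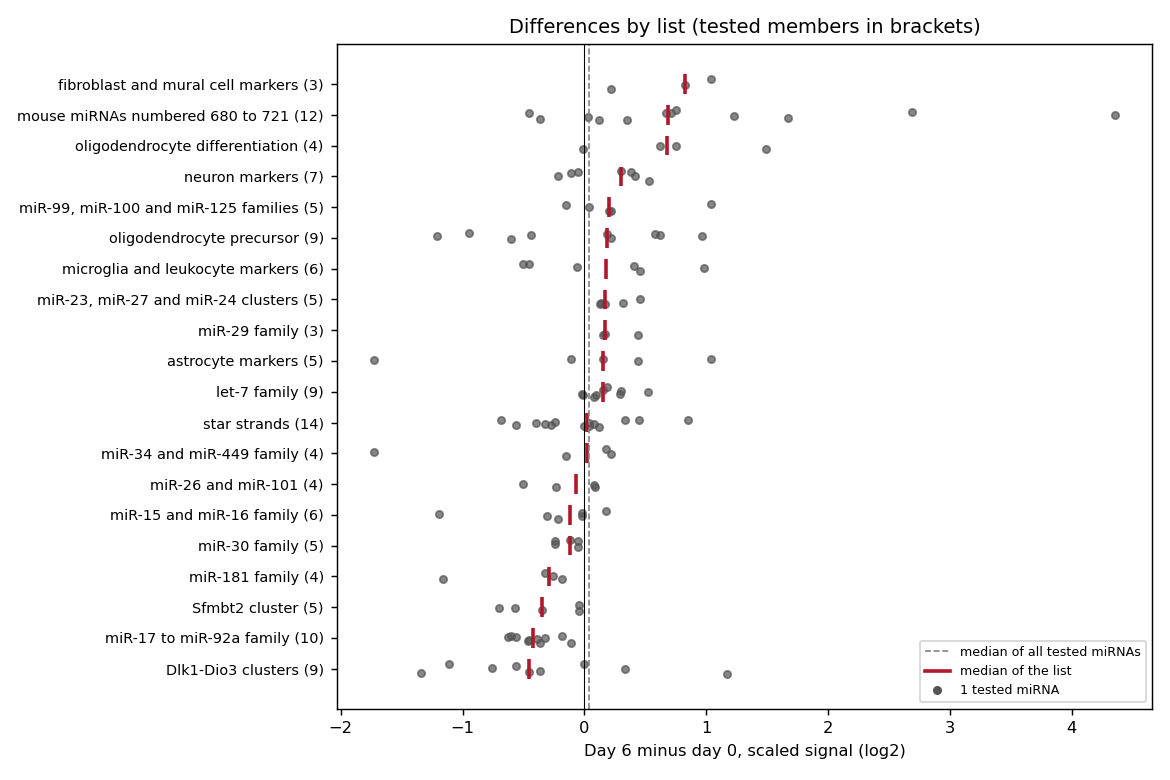
Each grey point is the day 6 minus day 0 difference in scaled signal (log2) of 1 tested miRNA, by list, with the number of tested members in brackets, a red bar at the median of the list and a dashed line at the median of all tested miRNAs (0.04). Lists with at least 3 tested members are shown, ordered by their median, from fibroblast and mural cell markers at 0.83 to the Dlk1-Dio3 clusters at -0.45.

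MiRNAs of other cell types were measured as a check of the cultures. The oligodendrocyte miRNAs miR-219, miR-338-3p and miR-138 were detected on all day 6 arrays, and on day 0 replicates 2 and 3. Of the 10 neuron miRNAs 7 were tested, with a median of 0.30, and their summed signal was 569 to 1800 on day 6 and 781 to 852 on day 0. MiR-124, the defining neuronal miRNA, read 8.47, 6.59 and 10.01 on day 6, against 7.25, 8.46 and 8.46 on day 0, with day 6 arrays both above and below all of day 0. Of 7 microglia and leukocyte miRNAs, 6 were tested, with a median of 0.18 and sums of 1300 to 2130 on day 6 and 1470 to 2750 on day 0. The leukocyte miRNA miR-142-3p read 9.05, 9.33 and 9.02 on day 6, against 9.41, 10.39 and 9.10 on day 0, so it was detected on every array. MiR-146a was the member with the largest difference, 0.98 ± 0.45 (SE, adjusted p = 0.461, limma). Sums of signal are dominated by their brightest members.

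The 5 fibroblast and mural cell miRNAs had 3 tested, all above 0, with a median of 0.83 and sums of 126 to 445 on day 6 and 128 to 259 on day 0. Without day 0 replicate 1 their median was 1.13. Within that list miR-143 read 5.29, 6.28 and 4.22 on day 6, with every day 0 value at the floor, and miR-145 was not detected. MiR-199a-3p read 7.31, 7.87 and 5.67 on day 6, against 6.72, 5.90 and 5.73 on day 0. Within slide rows 1 and 2 miR-199a-3p differed by -0.56 and 1.69, and miR-143 by 0 and 1.56. The 5 astrocyte miRNAs had a median of 0.15 and sums of 8900 to 16300 on day 6 and 10100 to 18000 on day 0. Of 9 miRNAs of epithelia and choroid plexus, only miR-204 was tested and the 7 other than miR-204 and miR-211 were not detected. It read 4.25, 5.26 and 4.22 on day 6, against 8.17, 4.40 and 6.50 on day 0, with a difference of -1.78 ± 0.86 (SE, adjusted p = 0.461, limma). The difference was -0.79 without day 0 replicate 1, and -3.11 and 0.35 within slide rows 1 and 2. The 2 endothelial, 3 erythroid and 4 muscle miRNAs were not detected on any of the 6 arrays. No marker list had a call, and the part of other cell types in the 3 calls was not tested.

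The miRNAs whose day 6 values lay wholly above day 0 had more G, by the median, than all tested miRNAs with a sequence. Among the tested miRNAs with a sequence, the median share of G was 40.9% for the 17 whose days did not overlap on the higher side, 20.9% for the 10 on the lower side and 23.8% for all 147. The median share of G and C was 54.5%, 44.5% and 45.5% for the same sets. Within the 17, the share of G ran from 4.76% for miR-483 to 61.9% for miR-1224. MiR-714, miR-712 and miR-689 had no sequence entry and are not among the 17. Over the 147 miRNAs the difference correlated with the G share at Pearson's r of 0.30 and Spearman's rho of 0.227, and with the G and C share at 0.259 and 0.173. These are descriptions over probes of shared arrays, and the correlations are weak. Base composition also sets how probes bind, and its part in the differences was not tested.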

How the data were processed

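Per the file headers, the deposited spot files came from Agilent Feature Extraction 9.5, which the submitters' processing notes also name. Their intensities are background-subtracted on a linear scale, can fall below 0 and were not scaled between arrays. The submitters' value table of deposited intensities holds the same numbers (largest difference 0), so its scale is known and uncentred, and higher means more signal. Its column medians were 2.83, 1.74 and 1.78 on day 6 and -6.93, 2.90 and 3.28 on day 0.

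Of 13715 spots per array, 13000 were not controls and formed 1857 probes for 611 mouse and 39 viral miRNAs. Outlier spots (242 to 648 per array) were dropped and the spots of a probe averaged. Arrays were divided by the 75th percentile of the 91 probes detected throughout the 6 arrays, and a floor was set at the 5th percentile of detected values, 18.7, before log2. A miRNA takes the value of its brightest probe, and the 181 mouse miRNAs with that probe detected on at least 3 of the 6 arrays were tested, which left 430 untested. Differences from the floor depend on the floor. The small number of arrays limits precision. No spot was saturated.

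R 4.3 with limma 3.58 and the data.table package, version 1.17, were used (lmFit and eBayes, two-sided, Benjamini-Hochberg over the 181), with Python 3.11 and matplotlib 3.10 for figures. The fit was tested on simulated data. Named miRNAs were all calls, up to 8 per direction detected on all arrays without overlap of the days, up to 4 per direction detected on 1 day only, every tested miRNA of the differentiation and miR-17 to miR-92a lists, and the 2 with the smallest p of every other list. Members, lists and this rule were chosen with earlier results of these data known. Old array names were matched to RefSeq names by hand.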

Additional observations from a re-analysis of the deposited data

Results flagged for a closer look

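One signal lay outside the mouse miRNAs of the comparison. The probe for mcmv-miR-M23-1-5p, a miRNA of mouse cytomegalovirus, read 6.38, 5.36 and 5.75 on day 6 and 4.22 on each day 0 array, a difference of 1.61 on the log2 scale. It was well above background on 3 day 6 arrays and on 1 day 0 array, and the day 1 arrays read 4.22 and 4.72. It stands out because probes for viral miRNAs were not part of the test and this one was above its day 0 level. The other arm of the same hairpin, mcmv-miR-M23-1-3p, differed by -0.21 with overlapping days.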

How the results depend on the processing

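The main count was 3 miRNAs higher and 0 lower on day 6. The count of higher miRNAs was 9 with scaling to control probes, 9 with array weights, 8 with all 8 arrays in the fit, and 1 each with the mean of all probes, with no detection filter and with the 53 miRNAs detected on all 6 arrays, where miR-494 and not miR-714 was tested and called. Leaving out each array gave 1 to 4 higher and 0 to 1 lower: 1 higher without any single day 6 array, 2 without day 0 replicate 2 or replicate 3, and 4 higher and 1 lower without day 0 replicate 1. The lower count was 1 with array weights and, in an alternative added after seeing the data, 1 with undetected values of day 0 replicate 1 set to missing (4 higher). In each of these the lower call was miR-322. With the replicate number as a block it was 2 higher, and with the slide row as a block, also added, 2 higher. The sources used here do not say whether replicate numbers pair the samples. Deviations from the mean of a day correlated at -0.0657, -0.402 and 0.348 for same-numbered arrays. For differently numbered arrays they correlated at -0.351 to 0.38. Deviations from a mean of 3 arrays depend on each other, so these values cannot settle pairing. Scaling over all probes, no scaling and normexp gave 2 higher. Quantile normalization and outlier spots kept gave the main 3. The count was also 3 in other alternatives, but with other miRNAs. A higher floor called miR-714, miR-99b and miR-494, and a lower floor called miR-714, miR-711 and miR-710. EBayes with trend and robust called miR-714, miR-711 and miR-494. For the lower side, limma called 0 in the main fit, with 6 at an unadjusted p under 0.05. Scaling changed the split of all tested differences into above and below 0 from 97 and 84 to 34 and 147 with none, 132 and 49 with control probes, 121 and 60 over all probes, and 111 and 70 with quantile normalization. Over 64 miRNAs and 1407 values no call reversed, 18 values lost and 27 gained a call, and 45 values of 21 uncalled miRNAs changed sign. The high background of day 0 replicate 1 limits what can be read of dim miRNAs on day 0. The cause of the changes in count was not tested.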
